A study of Mus musculus with 7 samples.

Results

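The keratin genes of the mouse were followed in nasal tissue exposed to diesel exhaust particles (DEP), which are the soot particles of diesel engines. A gene was taken as a keratin when the RefSeq gene behind a probe's transcript has a symbol made of Krt, a number and at most a letter, and the keratin-associated proteins, with symbols beginning Krtap, were kept as a separate list. Of the 54 keratin genes in the RefSeq table, 53 had a probe on the array, out of 32095 names in all, and they were represented by 64 probes. Krt83 had no probe. The 53 genes were divided into basal, simple, squamous, hair and other keratins, and all members are accounted for by these groups.

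Keratins are the intermediate filament proteins of epithelial cells, and each filament is built from pairs of a type I and a type II keratin. Basal cells of stratified epithelia make Krt5 with Krt14 and Krt15, simple and glandular epithelia make Krt8 and Krt18 with Krt7 and Krt19, wet squamous epithelia such as that of the mouth make Krt4 with Krt13, cornified skin makes Krt1 with Krt10, and stressed or rapidly growing epithelia make Krt6, Krt16 and Krt17. Hair keratins form the cortex and cuticle of the hair, and a related set, with Krt25, Krt27, Krt28 and Krt71 to Krt73, belongs to the inner root sheath that surrounds the growing hair. Nasal tissue is lined by olfactory and respiratory epithelium.

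All mice were female BALB/c mice with an age of 6 weeks in the labels, with no genetic change. The exposed mice inhaled 100 µg/m3 DEP in saline from a nebulizer for an hour on 5 days a week, and the control mice inhaled saline under the same conditions. RNA was taken from the nasal septum and turbinates, from the incisive papilla back to the second molar with the jaw and the nose cut away, after 4 weeks (4 arrays) or 8 weeks (3 arrays), and on each array exposed RNA labelled with Cy5 was hybridised together with control RNA labelled with Cy3. The labels call the arrays biological replicates and the study's methods give 8 mice per group for the exposure of 4 weeks, but neither says how many mice each RNA came from or whether controls were pooled, so the errors here measure the spread between arrays. The dyes were never swapped, so at each time a dye effect and an effect of exposure cannot be told apart. Each exposure time had a slide of its own, so slide, time and the age of the mice cannot be told apart either.

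The DEP channel of an array had 18661 to 25098 probes well above background and the control channel 17105 to 26964, with 0 saturated spots. Over all 25236 probes tested, the log2 ratios of DEP over control correlated between pairs of 4-week arrays at r = 0.439 to 0.491, between pairs of 8-week arrays at 0.71 to 0.876, and between the times at 0.087 to 0.286, as a description across probes that share slides and channels. Levels in a tissue of many cell types are reported, so fewer cells of a type and less RNA per cell cannot be told apart.

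Of the 53 keratins, 43 were tested, having a probe that stood well above background on 3 or more of the 7 arrays in the DEP or the control channel. Another 10 did not reach this level and have no value here: Krt12, Krt20, Krt26, Krt34, Krt39, Krt74, Krt77, Krt82, Krt87 and Krt88. Both channels were above background on every array for 28 of the 43. Of the hair keratins, Krt36, Krt40, Krt75 and Krt84 reached 3 arrays only through the DEP channel at 8 weeks. Where several probes of a gene were tested, the brightest stands for the gene.

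At 4 weeks, 25 of the 43 keratins differed between DEP and control at an adjusted p of at most 0.05 (limma with Benjamini-Hochberg adjustment over all probes), against 38.1% of all 20723 genes tested. Of these, 6 were higher and 19 lower in DEP tissue, where 21.6% of all genes were higher and 16.6% lower. The scanner software's own processed signals gave a different split of 9 higher and 15 lower. With those signals 6369 of all genes were higher and 3069 lower at 4 weeks, against 4466 and 3432 in the main setting. At 8 weeks, 28 keratins differed, against 37.2% of all genes, and 17 were higher and 11 lower, where the shares over all genes were 20.3% and 16.9%. With the 4 keratins left out that passed the filter only through 8-week DEP tissue, 14 of 39 were higher and 11 lower. Keratins past an unadjusted p of 0.01 with at least a 2-fold change numbered 6 at 4 weeks, where 1.3% of all genes passed, and 7 at 8 weeks, where 2.93% passed. The median log2 ratio of the 43 keratins was -0.13 at 4 weeks and 0.24 at 8 weeks, and that of all genes was 0 and 0.01.

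Of the 18 keratins called at both times, 11 kept their direction and 7 had opposite signs. Of the 11, 8 were lower at both times and 3 were higher at both. Another 8 keratins were called at neither time. The shares of all genes with the same sign, with opposite signs or called at neither time were not counted. These splits are therefore no result about keratins in particular. The log2 ratios themselves differed between the times for 24 keratins, 19 of them higher and 5 lower at 8 than at 4 weeks, where 30.8% of all genes differed, 14.8% higher and 16% lower. The arrays of the 2 times did not overlap for 25 of the 43 keratins, against 42.2% of all genes. Krt36, Krt40, Krt75 and Krt84 passed the filter only through 8-week DEP tissue. All of them are among the 19 with a higher ratio at 8 weeks and among the 25, and Krt84 is among the 7 with opposite signs.

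**Figure D1:**
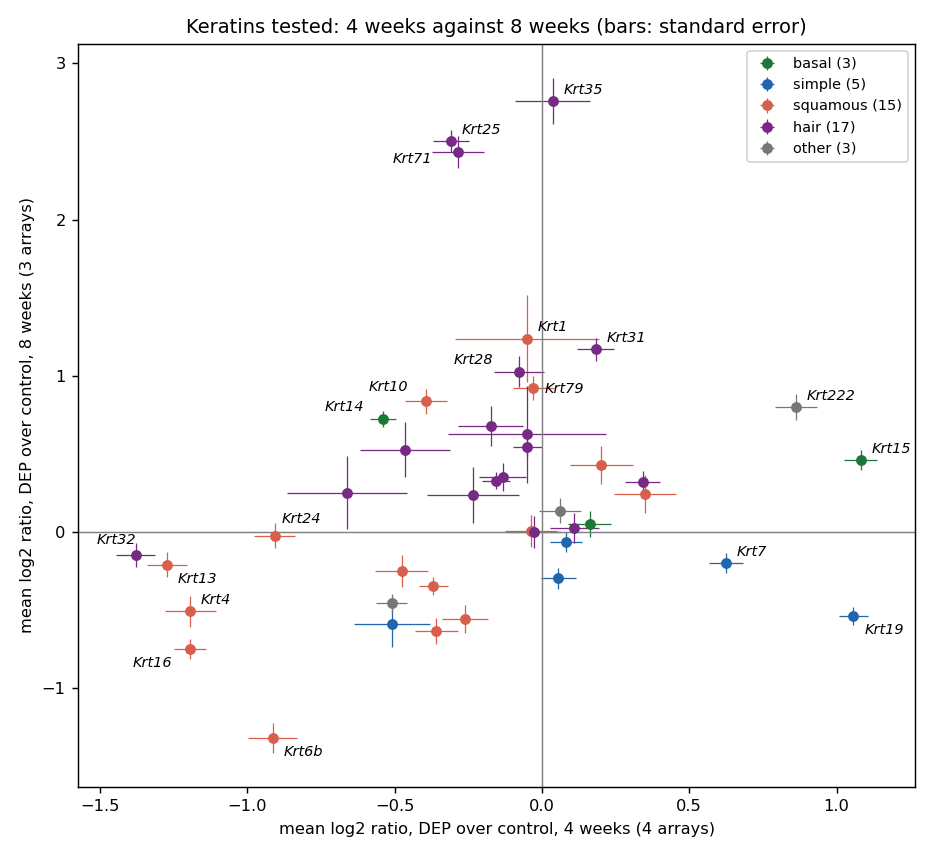
Mean log2 ratio of DEP over control at 4 weeks (x axis) and at 8 weeks (y axis) for the 43 tested keratins, coloured by group with the number of genes in each, with bars for the standard error of the fit. Krt25, Krt71 and Krt35 lie at the top with ratios between 2.43 and 2.76 at 8 weeks and near 0 at 4 weeks, while Krt19 lies to the right and below 0.

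Among the basal keratins, Krt14 fell at 4 weeks and rose at 8 weeks, Krt15 rose at both times and Krt5 was called at neither. Krt14 is the type I keratin of the basal layer. Its log2 ratio was -0.58, -0.56, -0.54 and -0.48 on the 4-week arrays and 0.78, 0.67 and 0.73 on the 8-week arrays. All 4 arrays at 4 weeks were low and all 3 at 8 weeks were high, with no overlap. The mean changed from -0.54 ± 0.04 (SE, n = 4; adjusted p = 9.85e-05) to 0.73 ± 0.05 (SE, n = 3; adjusted p = 3.46e-05), and the times differed by 1.27 ± 0.07 (adjusted p = 2.38e-05).

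Krt15, a type I keratin of basal cells and of the stem cells of the hair follicle, had log2 ratios of 0.94, 1.1, 1.16 and 1.13 at 4 weeks and 0.43, 0.38 and 0.57 at 8 weeks. Every array was above 0, and each 8-week array was below each 4-week array. The mean was 1.08 ± 0.06 (adjusted p = 1.08e-05) at 4 weeks, a 2.12-fold rise, and 0.46 ± 0.06 (adjusted p = 0.00123) at 8 weeks. In the control channel the log2 signal of Krt15 was 1.06 higher at 8 than at 4 weeks (adjusted p = 0.00182), and in the DEP channel 0.44 higher (adjusted p = 0.0562). Krt5, the type II partner of Krt14, had a mean log2 ratio of 0.16 at 4 weeks (adjusted p = 0.122) and 0.05 at 8 weeks (adjusted p = 0.68) on its brighter probe. A dimmer probe gave -0.58 at 4 weeks (adjusted p = 0.0234) and -0.50 at 8 weeks (adjusted p = 0.0674), so the direction of Krt5 depends on the probe.

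Of 5 simple keratins tested, 2 were higher and 1 lower at 4 weeks, and 0 were higher and 4 lower at 8 weeks. That is 60% and 80% of them, against 38.1% and 37.2% of all genes. Krt19, the type I keratin of simple and ductal epithelia that has almost no tail, had log2 ratios of 0.99, 1.03, 1.13 and 1.09 at 4 weeks and -0.44, -0.57 and -0.61 at 8 weeks. It was above 0 on each 4-week array and below 0 on each 8-week array. The mean went from 1.06 ± 0.05 (2.08-fold higher; adjusted p = 7.78e-06) to -0.54 ± 0.06 (1.45-fold lower; adjusted p = 3.10e-04), a difference of -1.59 ± 0.08 (adjusted p = 1.43e-05). Its control signal rose by 1.03 on the log2 scale between 4 and 8 weeks (adjusted p = 0.00298) and its DEP signal fell by 0.56 (adjusted p = 0.00601), so both channels moved.

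Krt7, a type II keratin of glandular and ductal epithelium, followed the same course at a smaller size. Its log2 ratios were 0.55, 0.65, 0.67 and 0.63 at 4 weeks and -0.05, -0.35 and -0.19 at 8 weeks, without overlap. The mean was 0.62 ± 0.06 (adjusted p = 1.75e-04) and then -0.20 ± 0.07 (adjusted p = 0.0479).

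Krt8, the type II keratin of simple epithelia, fell at both times. Its log2 ratios were -1.03, -0.33, -0.20 and -0.47 at 4 weeks and -0.48, -0.78 and -0.50 at 8 weeks, and the times overlapped. The mean was -0.51 ± 0.13 (adjusted p = 0.0173) and -0.59 ± 0.15 (adjusted p = 0.0174), and the 8-week call was lost without replicate 2 of 8 weeks (-0.49, adjusted p = 0.111), without replicate 3 of 8 weeks (-0.63, adjusted p = 0.0566) and with the methods' t-test (adjusted p = 0.057). Its type I partner Krt18 had a mean of 0.06 at 4 weeks (adjusted p = 0.489) and fell by 0.30 at 8 weeks (adjusted p = 0.0128). In control tissue the signal of Krt8 fell by 1.22 and that of Krt18 by 0.60 on the log2 scale between 4 and 8 weeks, with adjusted p = 1.83e-04 and 0.00144, while Krt19, Krt7 and Krt23 were higher in 8-week controls by 1.03, 0.58 and 0.65. Krt23, a type I keratin, had log2 ratios of 0.08 and -0.06 at the 2 times and was called at neither.

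**Figure D2:**
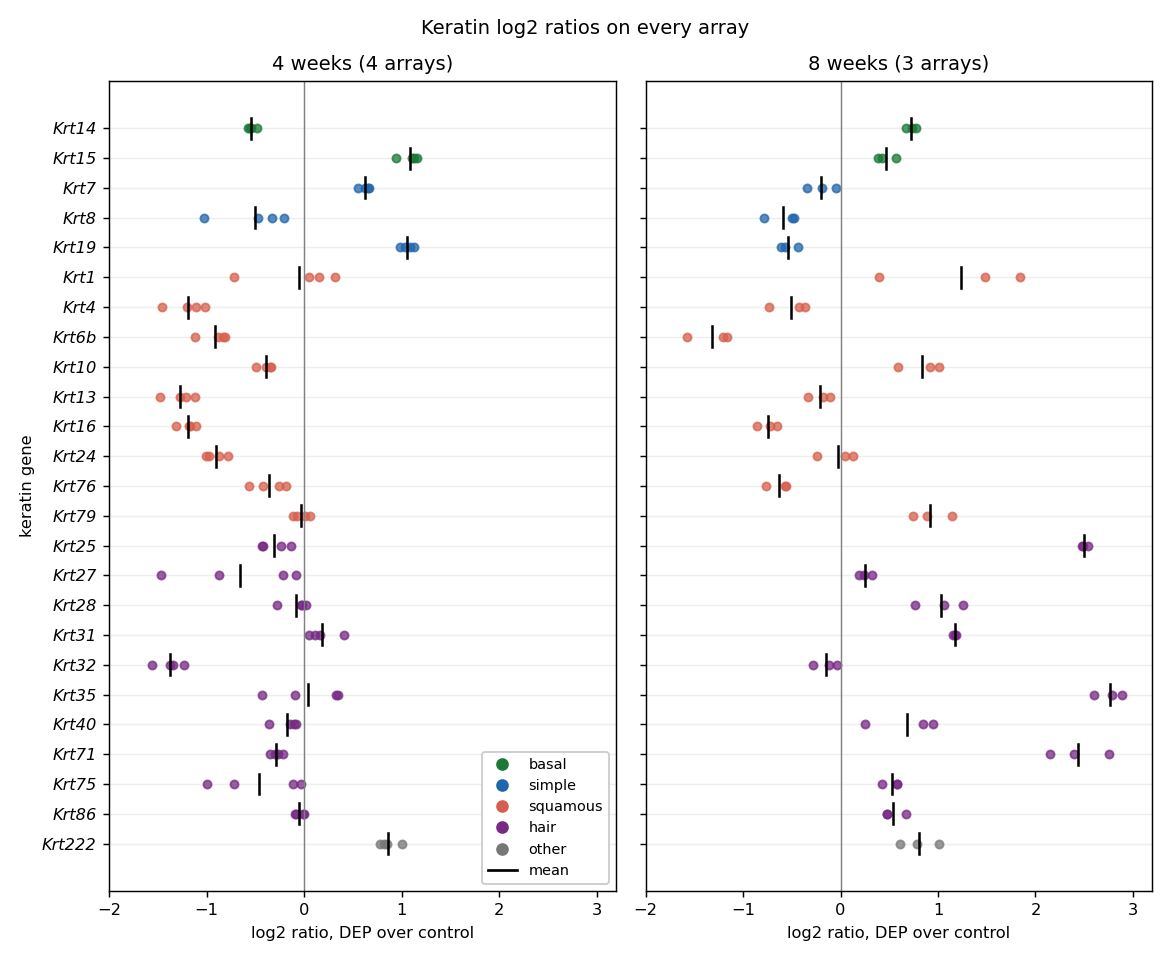
Log2 ratio of DEP over control (x axis) on each of the 4 arrays at 4 weeks (left) and the 3 arrays at 8 weeks (right) for the 25 keratins given with their values, as points coloured by group and with a black bar at the mean. Krt4, Krt13, Krt16 and Krt32 sit below -1 on every 4-week array, and Krt25, Krt35 and Krt71 sit above 2 on every 8-week array.

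The squamous keratins were mostly lower at 4 weeks: 10 of 15 tested were lower, 1 was higher and 4 were not called, with a median log2 ratio of -0.37. At 8 weeks 6 were lower, 4 higher and 5 not called, with a median of -0.21. The share called was 73.3% at 4 weeks and 66.7% at 8 weeks, against 38.1% and 37.2% of all genes. Between the times, 7 had a higher ratio at 8 weeks and 1 a lower one.

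Krt13 and Krt4 form the filament pair of wet squamous epithelium such as the lining of the mouth. Krt13 had log2 ratios of -1.48, -1.21, -1.12 and -1.28 at 4 weeks and -0.10, -0.34 and -0.18 at 8 weeks. All 4-week arrays were lower than all 8-week arrays, and none was above 0. The mean of -1.27 ± 0.07 at 4 weeks was a 2.42-fold decrease (adjusted p = 1.35e-05), which a second probe of the gene gave as -1.11 (adjusted p = 6.21e-04), and the 8-week mean of -0.21 was not called (adjusted p = 0.0751).

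Krt4 had log2 ratios of -1.20, -1.01, -1.11 and -1.45 at 4 weeks and -0.42, -0.73 and -0.36 at 8 weeks. It was lower in DEP tissue on all 7 arrays, least so at 8 weeks. The mean went from -1.19 ± 0.09 (2.29-fold lower; adjusted p = 5.87e-05) to -0.51 ± 0.10 (adjusted p = 0.00639). Their difference of 0.69 had an adjusted p of 0.00721, and it was not called with the background fitted on every spot (0.52, adjusted p = 0.183).

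Krt16 and Krt6b, keratins of stressed epithelium, were lower at both times. Krt16, a type I keratin, had log2 ratios of -1.17, -1.18, -1.32 and -1.11 at 4 weeks and -0.65, -0.72 and -0.86 at 8 weeks. The arrays of the 2 times did not overlap. The mean was -1.19 ± 0.05 at 4 weeks (adjusted p = 7.44e-06) and -0.75 ± 0.06 at 8 weeks (adjusted p = 1.00e-04).

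Krt6b, a type II partner of Krt16, had log2 ratios of -1.13, -0.88, -0.81 and -0.84 at 4 weeks and -1.58, -1.21 and -1.17 at 8 weeks. It was lower on all 7 arrays, with means of -0.91 ± 0.08 (adjusted p = 1.76e-04) and -1.32 ± 0.10 (adjusted p = 4.39e-05). A second probe gave -0.75 and -0.62 (adjusted p = 0.00116 and 0.00516), so the size at 8 weeks depends on the probe, and the difference between the times was -0.40 on the first probe (adjusted p = 0.0465) and 0.13 on the second (adjusted p = 0.548). Its close copy Krt6a fell by 0.26 at 4 weeks and by 0.55 at 8 weeks (adjusted p = 0.0322 and 0.00258). Krt17, another type I member, fell by 0.48 at 4 weeks (adjusted p = 0.00494) and had a mean of -0.25 at 8 weeks (adjusted p = 0.0932). Krt6a and Krt6b are nearly identical, as are parts of Krt14, Krt16 and Krt17, and the probe sequences were not used here, so signal shared between such copies cannot be told apart.

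Krt24, a type I keratin found in differentiating squamous cells, had log2 ratios of -0.78, -1.0, -0.88 and -0.97 at 4 weeks and 0.13, 0.05 and -0.24 at 8 weeks. It was low on each 4-week array and near 0 at 8 weeks. The mean of -0.91 ± 0.07 (adjusted p = 7.97e-05) was followed by -0.02 (adjusted p = 0.87), a difference of 0.89 (1.53 with the processed signals). Krt76, a type II keratin of the palate, had log2 ratios of -0.19, -0.26, -0.56 and -0.42 at 4 weeks and -0.57, -0.77 and -0.56 at 8 weeks. It was lower on all 7 arrays, with means of -0.36 and -0.63 (adjusted p = 0.00676 and 9.44e-04). Krt78 was lower at both times as well, at -0.37 and -0.34 (adjusted p = 0.00108 and 0.00274).

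The pair of cornified skin went the other way at 8 weeks. Krt10, its type I keratin, had log2 ratios of -0.35, -0.34, -0.39 and -0.49 at 4 weeks and 1.01, 0.92 and 0.59 at 8 weeks. Each 4-week array was below 0 and each 8-week array above it. The mean changed from -0.39 ± 0.07 (adjusted p = 0.00433) to 0.84 ± 0.08 (adjusted p = 2.12e-04). A second probe was not called at 4 weeks (-0.18, adjusted p = 0.2) and was higher at 8 weeks (0.66, adjusted p = 0.00414).

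Krt1, the type II partner of Krt10, had log2 ratios of 0.05, -0.72, 0.32 and 0.15 at 4 weeks and 1.84, 1.48 and 0.39 at 8 weeks. Its arrays varied far more than those of Krt10, though the lowest 8-week array was still above the highest 4-week array. The 8-week mean of 1.24 ± 0.28 (adjusted p = 0.0114) was not called without replicate 1 (0.94, adjusted p = 0.0668) or replicate 2 of 8 weeks (1.12, adjusted p = 0.0754), or by the methods' t-test (adjusted p = 0.127). The difference between the times was 1.29 ± 0.37 (adjusted p = 0.0343). It was lost without replicate 1, 2 or 4 of 4 weeks (adjusted p = 0.0583, 0.0616 and 0.0533) and without replicate 1 or 2 of 8 weeks (0.104 and 0.119), and also with no filter on dim probes (0.0616) and with the processed signals (0.055).

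Krt79, a type II keratin of the funnel of the hair follicle and its sebaceous duct, had log2 ratios of 0.06, 0.01, -0.07 and -0.11 at 4 weeks and 1.14, 0.89 and 0.74 at 8 weeks. It was near 0 at 4 weeks and high on every 8-week array, with a mean of 0.92 ± 0.08 (adjusted p = 1.10e-04). Its DEP signal was -0.12 apart between the times on the log2 scale (adjusted p = 0.374), and its control signal fell by 1.08 (adjusted p = 4.58e-05). Krt2, of the upper layers of skin, rose by 0.43 at 8 weeks (adjusted p = 0.0281) and had a 4-week mean of 0.20 (adjusted p = 0.172), while a second probe was called higher at both times (0.54 and 0.57, adjusted p = 0.00122 and 0.00172). Krt80, a type II keratin of many epithelia, rose by 0.35 at 4 weeks (adjusted p = 0.0338), with control and DEP signals 1.81 and 1.71 higher at 8 than at 4 weeks. Krt9, the type I keratin of the footpad, was called at neither time and had no control array above background at 4 weeks.

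Markers of squamous epithelium other than keratins moved with these genes at 4 weeks. All 12 of the list were tested and all 12 were lower at 4 weeks (median -0.66), from Calml3 at -0.27 to Sprr1b at -1.27. At 8 weeks 4 were higher and 4 lower (median -0.05), among them Sbsn at 0.55 and Cnfn at -1.34. The log2 of their summed signal was 13.44 to 13.68 in DEP and 14.05 to 14.26 in control tissue at 4 weeks, and 13.62 to 13.76 against 13.66 to 13.70 at 8 weeks. Markers of tooth were lower and then higher: 5 of 6 were lower at 4 weeks (median -1.32) and 5 of 6 higher at 8 weeks (median 1.17), with summed log2 signals of 12.39 to 12.54 in DEP against 13.98 to 14.08 in control tissue at 4 weeks and 16.24 to 16.63 against 15.42 to 15.46 at 8 weeks. Markers of olfactory neurons were higher and then lower, with 5 of 8 higher at 4 weeks and 7 of 8 lower at 8 weeks, and summed log2 signals of 17.11 to 17.26 against 16.24 to 16.50 and then 16.51 to 16.58 against 16.98 to 17.16. The part of a different share of these tissues in the keratin values was not tested. Over all genes 38.1% were called at 4 weeks and 37.2% at 8 weeks.

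**Figure D3:**
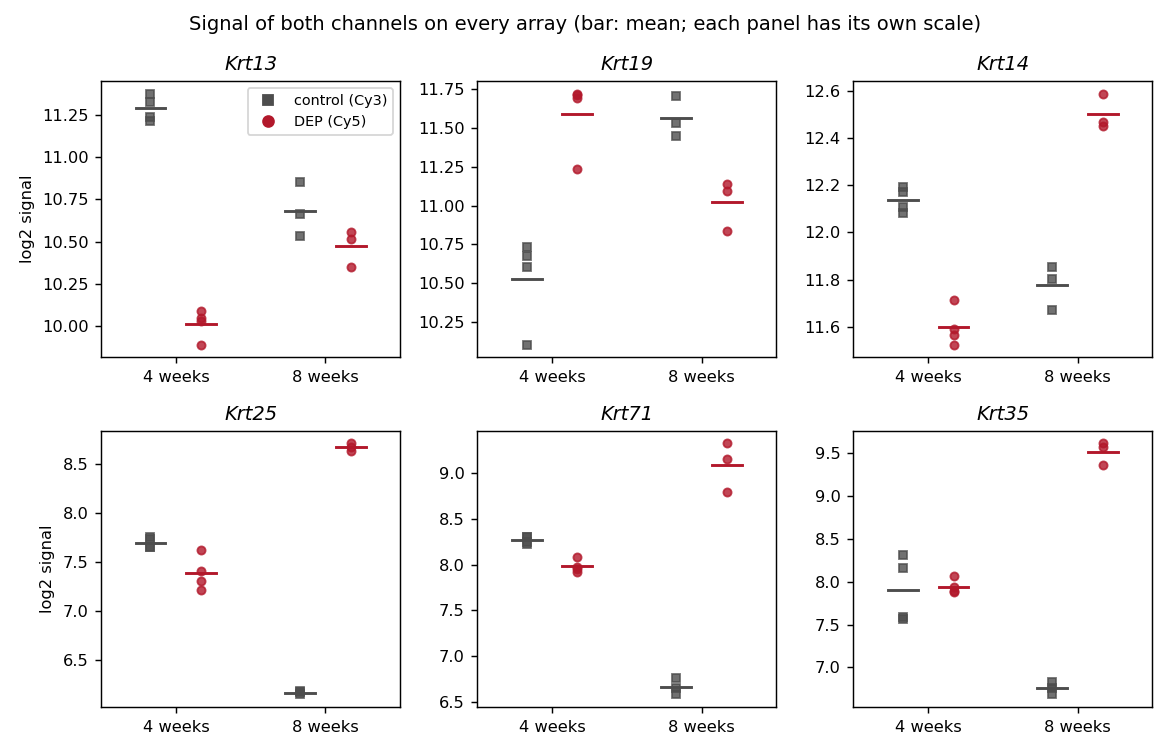
Log2 signal (y axis) of the control channel (grey squares) and the DEP channel (red circles) on every array at 4 and 8 weeks for 6 keratins, with bars at the mean and a separate scale in each panel. For Krt25, Krt71 and Krt35 the DEP signal is higher and the control signal lower at 8 weeks than at 4 weeks, while for Krt13 the DEP signal is higher and the control signal lower with a smaller gap left at 8 weeks.

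Hair keratins gave the highest ratios of the family, at 8 weeks. At 4 weeks 1 of 17 tested was higher and 6 lower (median -0.13), and at 8 weeks 10 were higher, 0 lower and 7 not called (median 0.53). The share called was 41.2% at 4 weeks and 58.8% at 8 weeks, against 38.1% and 37.2% of all genes. Without the 4 members that passed the filter only through 8-week DEP tissue, 7 of 13 were higher and 0 lower at 8 weeks. The ratio was higher at 8 than at 4 weeks for 11 of the 17 and lower for 0, with a median difference of 0.86, and without the same 4 members for 7 of 13 and for 0, with a median of 0.92.

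Krt25 and Krt71 are a type I and a type II keratin of the inner root sheath. Krt25 had log2 ratios of -0.13, -0.44, -0.42 and -0.24 at 4 weeks and 2.53, 2.49 and 2.48 at 8 weeks. The arrays of the 2 times lay far apart and the 8-week arrays close together. The mean was -0.31 ± 0.06 (adjusted p = 0.00614) and then 2.50 ± 0.07 (5.66-fold higher; adjusted p = 8.79e-07). The size at 8 weeks depends on the background correction, since the processed signals of the scanner software gave 5.15 (adjusted p = 1.12e-05).

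Krt71 had log2 ratios of -0.22, -0.30, -0.27 and -0.35 at 4 weeks and 2.75, 2.40 and 2.15 at 8 weeks. The mean was -0.29 ± 0.09 (adjusted p = 0.0371) and then 2.43 ± 0.10 (5.39-fold higher; adjusted p = 3.64e-06), or 3.80 with the processed signals (adjusted p = 2.56e-05). Krt25 and Krt71 moved alike in each channel: the DEP signal was 1.29 and 1.11 higher at 8 than at 4 weeks on the log2 scale, and the control signal fell by 1.53 and 1.61. In 8-week controls Krt25 was well above background on 1 of 3 arrays and Krt71 on 2 of 3, so these control signals are close to background and the folds are set against a level that was not measured on every array.

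The promoters of both genes are shown because the genes lie on different chromosomes and moved together. Each window runs from 250 bases before to 50 bases after the start of the gene in RefSeq (GRCm38.p6), 5′ to 3′ on the gene's strand, Krt25 at chr11:99322902-99323201 and Krt71 at chr15:101743048-101743347, both on the minus strand. Capitals mark matches on either strand to TATAAA (the TATA box), AGATAA (bound by GATA factors), ACAAAG (bound by LEF and TCF factors) or TGANTCA (bound by AP-1).
Krt25: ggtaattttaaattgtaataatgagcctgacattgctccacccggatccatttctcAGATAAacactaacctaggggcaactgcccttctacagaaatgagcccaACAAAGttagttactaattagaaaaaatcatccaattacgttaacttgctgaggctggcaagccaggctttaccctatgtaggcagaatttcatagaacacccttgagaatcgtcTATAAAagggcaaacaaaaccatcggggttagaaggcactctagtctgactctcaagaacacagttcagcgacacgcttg
Krt71: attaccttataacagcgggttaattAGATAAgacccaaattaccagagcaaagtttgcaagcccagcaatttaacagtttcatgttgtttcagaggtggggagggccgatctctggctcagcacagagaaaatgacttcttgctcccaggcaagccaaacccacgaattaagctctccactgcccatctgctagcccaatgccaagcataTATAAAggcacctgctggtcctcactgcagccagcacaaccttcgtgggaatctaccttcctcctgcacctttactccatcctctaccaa
Both windows hold TATAAA shortly before the start, at -30 in Krt25 and -40 in Krt71, and an AGATAA match further up, and Krt25 alone of the pair holds ACAAAG. Of 37 keratin windows, which 36 of the 53 genes have, 51.4% hold TATAAA, against 13.6% of all 32851 windows, and in the hair group 13 of 17 windows hold it. AGATAA is in 27.0% of the keratin windows and 11.2% of all, and ACAAAG in 10.8% and 18.7%. Keratins called and not called at 8 weeks hold TATAAA, and a match is a description of these letters.

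Krt35, a type I keratin of the hair cortex, had log2 ratios of 0.32, -0.43, -0.09 and 0.35 at 4 weeks and 2.79, 2.89 and 2.60 at 8 weeks. The 4-week arrays lay on both sides of 0 and the 8-week arrays all near the top of the family. The 8-week mean of 2.76 ± 0.15 was a 6.78-fold rise (adjusted p = 9.43e-06; with the processed signals 4.12, adjusted p = 4.12e-05), with a DEP signal 1.58 higher and a control signal 1.15 lower at 8 than at 4 weeks on the log2 scale.

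Krt31, another type I keratin of the cortex, had log2 ratios of 0.41, 0.16, 0.05 and 0.11 at 4 weeks and 1.18, 1.15 and 1.17 at 8 weeks. All 3 8-week arrays were higher than all 4-week arrays, with a mean of 1.17 ± 0.07 (2.25-fold higher; adjusted p = 1.93e-05). Its control signal was not lower but 0.36 higher at 8 weeks (adjusted p = 0.00206), and its DEP signal was 1.35 higher (adjusted p = 3.64e-06).

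Krt86, a type II hair keratin, had log2 ratios of -0.02, -0.00, -0.10 and -0.08 at 4 weeks and 0.67, 0.48 and 0.48 at 8 weeks. The 4-week arrays were at 0 and the 8-week arrays all above them, with a mean of 0.54 ± 0.06 (adjusted p = 3.33e-04). The hair keratin Krt81, a close copy, had means of -0.03 and 0.00 and was called at neither time, and the signal the copies may share cannot be told apart here.

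Krt28, a type I keratin of the inner root sheath, had log2 ratios of -0.04, -0.02, 0.02 and -0.28 at 4 weeks and 0.76, 1.26 and 1.07 at 8 weeks. It was not well above background in the control channel of any 8-week array, so DEP was at least 2.04-fold higher (adjusted p = 1.91e-04). The processed signals gave a log2 ratio of 3.07 (adjusted p = 5.82e-04), and with no filter a dim probe took its place and was not called (0.24, adjusted p = 0.924). Krt40, a type I hair keratin, passed the filter only through 8-week DEP tissue. It had 8-week log2 ratios of 0.25, 0.84 and 0.95, against -0.10, -0.36, -0.14 and -0.09 at 4 weeks. The mean at 8 weeks was 0.68 ± 0.13 (adjusted p = 0.00513; the methods' t-test, 0.194), or 2.11 with the processed signals (adjusted p = 0.00136), and at 4 weeks it was not well above background in either channel.

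Krt75, a type II keratin of the layer between the hair and its root sheath, had log2 ratios of -0.03, -1.0, -0.72 and -0.11 at 4 weeks and 0.43, 0.58 and 0.58 at 8 weeks. The arrays varied widely at 4 weeks (mean -0.47, adjusted p = 0.0469). The gene passed the filter only through 8-week DEP tissue. At 8 weeks the control channel was not well above background (DEP at least 1.44-fold higher, adjusted p = 0.0507). The difference of 0.99 (adjusted p = 0.0166; 3.65 with the processed signals) was lost without replicate 2 of 8 weeks (adjusted p = 0.0634) or replicate 3 of 8 weeks (adjusted p = 0.058).

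Krt27, the neighbour of Krt25 and likewise of the inner root sheath, was not called at 8 weeks (mean 0.25, adjusted p = 0.446). Its log2 ratios were -0.87, -0.22, -1.47 and -0.09 at 4 weeks and 0.19, 0.25 and 0.32 at 8 weeks. All 4-week arrays were below 0 and all 8-week arrays above it, and the difference of 0.92 ± 0.31 was not called (adjusted p = 0.0596). At 4 weeks the DEP channel was not well above background on any array. The bound on the mean over arrays is at least 1.58-fold lower (adjusted p = 0.0363), and replicates 1 and 3 carried it. This call was lost without replicate 1 of 4 weeks (adjusted p = 0.111) or replicate 3 of 4 weeks (-0.39, adjusted p = 0.0711). It was also lost without any single 8-week array (0.0559 to 0.0615) and under 5 other settings (0.0601 to 0.304). Of these, the processed signals gave -1.39 (adjusted p = 0.0698).

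Krt32, a type I keratin of the hair cuticle, had the lowest 4-week ratio of the tested hair keratins. It had log2 ratios of -1.57, -1.35, -1.37 and -1.23 at 4 weeks and -0.04, -0.12 and -0.28 at 8 weeks. It had a 4-week mean of -1.38 ± 0.07 (2.60-fold lower; adjusted p = 8.62e-06; -2.04 with the processed signals), and was not called at 8 weeks (-0.15, adjusted p = 0.174). The difference between the times was 1.23 ± 0.10 (adjusted p = 1.69e-04).

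The promoters of Krt32 and Krt13, keratins of different groups that fell together at 4 weeks and lie in the same stretch of chromosome 11, are shown with the same marks. Krt32 is at chr11:100088220-100088519, and Krt13 has an upstream window at chr11:100121517-100121816 and a downstream one at chr11:100120528-100120827, all on the minus strand.
Krt32: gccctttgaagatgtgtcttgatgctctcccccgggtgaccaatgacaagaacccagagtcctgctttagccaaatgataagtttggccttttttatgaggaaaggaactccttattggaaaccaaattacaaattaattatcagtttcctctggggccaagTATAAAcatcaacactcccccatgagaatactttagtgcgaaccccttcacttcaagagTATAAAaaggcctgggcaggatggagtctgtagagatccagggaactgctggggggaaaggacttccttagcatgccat
Krt13, upstream window: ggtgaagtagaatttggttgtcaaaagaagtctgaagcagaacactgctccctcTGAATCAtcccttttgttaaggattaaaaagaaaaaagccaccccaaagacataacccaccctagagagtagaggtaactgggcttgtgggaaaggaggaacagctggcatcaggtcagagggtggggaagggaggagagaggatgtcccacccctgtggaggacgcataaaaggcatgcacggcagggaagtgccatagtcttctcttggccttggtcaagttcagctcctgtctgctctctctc
Krt13, downstream window: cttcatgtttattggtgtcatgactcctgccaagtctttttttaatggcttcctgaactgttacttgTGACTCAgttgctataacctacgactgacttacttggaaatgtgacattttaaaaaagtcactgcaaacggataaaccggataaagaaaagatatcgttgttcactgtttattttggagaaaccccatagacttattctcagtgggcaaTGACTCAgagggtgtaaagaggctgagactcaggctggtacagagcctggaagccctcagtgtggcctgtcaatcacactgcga
Krt32 holds TATAAA at -29 and at -88 from its start, and neither window of Krt13 holds it. Krt13 holds TGANTCA in both windows, and it is the only keratin with this match among the 36 that have a window: 5.41% of the keratin windows hold it, both of Krt13, against 7.81% of all windows.

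Among the other hair keratins, Krt73 of the inner root sheath rose by 0.34 at 4 weeks and by 0.32 at 8 weeks (adjusted p = 0.00353 and 0.00847), and Krt72 of the same layer was called at neither time (0.11 and 0.03). Krt36 and Krt84 passed the filter only through 8-week DEP tissue, so the filter itself favoured a higher ratio there. Krt36 had a mean of 0.35 at 8 weeks (adjusted p = 0.0199), with the control channel well above background on 1 of 3 arrays. At 4 weeks neither channel of Krt36 was well above background. Krt84 was lower at 4 weeks (-0.16, adjusted p = 0.0347), where neither channel was well above background, and at least 1.24-fold higher at 8 weeks (adjusted p = 0.00292). Krt33a and Krt33b, near-identical type I keratins of the cortex, were called at neither time. For Krt33a 1 array of 8 weeks went against the others, with log2 ratios of -0.57, 1.29 and 1.17.

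Of 3 other keratins tested, Krt222 was higher and Krt90 lower at both times. Krt222, a distant relative of the type I keratins, had log2 ratios of 1.01, 0.82, 0.85 and 0.78 at 4 weeks and 1.01, 0.78 and 0.61 at 8 weeks. It was high on all 7 arrays and the times overlapped. The means were 0.86 ± 0.07 (adjusted p = 1.11e-04) and 0.80 ± 0.08 (adjusted p = 2.71e-04; the methods' t-test, 0.06). A second probe of Krt222 was not above background on any array in either channel and was not tested, so these values rest on the first probe. Krt90 had means of -0.51 and -0.46 (adjusted p = 3.25e-04 and 0.00103), and Krt42 was called at neither time.

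**Figure D4:**
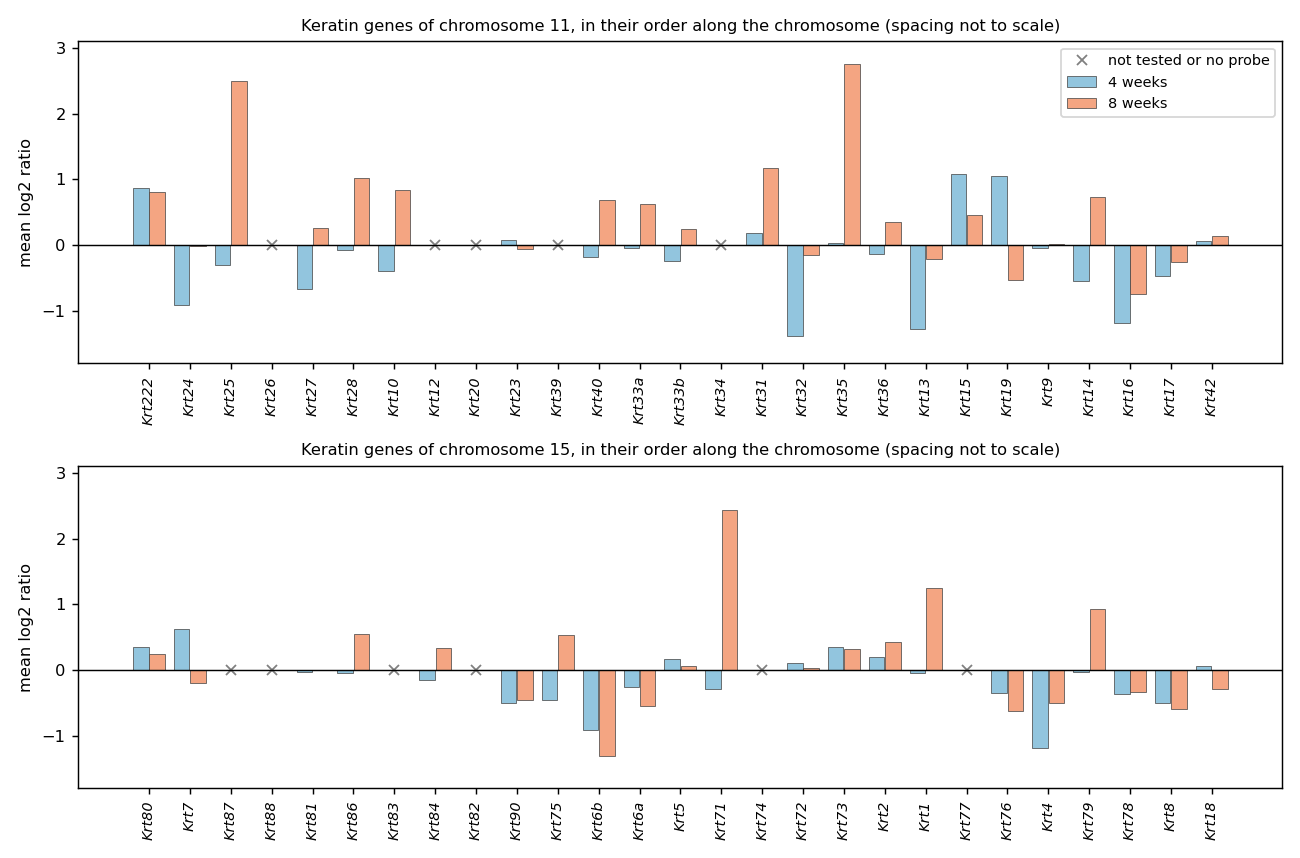
Mean log2 ratio of DEP over control at 4 weeks (blue bars) and 8 weeks (orange bars) for the keratins of chromosome 11 (top) and chromosome 15 (bottom), drawn in their order with equal spacing, with a cross for a gene not tested or without a probe. Neighbours differ in sign, as where Krt13 at -1.27 stands beside Krt15 at 1.08 and Krt19 at 1.06 at 4 weeks.

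Neighbouring keratin genes did not all move in the same direction. The type I keratins other than Krt18 lie in a cluster on chromosome 11 and the type II keratins, with Krt18, on chromosome 15. On chromosome 11, Krt32, Krt35, Krt36, Krt13, Krt15, Krt19, Krt9, Krt14, Krt16 and Krt17 follow each other. In this run Krt32 and Krt13 fell at 4 weeks and Krt35 was near 0, and at 8 weeks Krt35 rose while Krt32 and Krt13 were not called. Krt15 and Krt19, next to each other, both rose at 4 weeks, and at 8 weeks Krt15 was higher and Krt19 lower. On chromosome 15, Krt71 rose 5.39-fold at 8 weeks, where its neighbour Krt5 was not called.

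Control tissue differed between the times as well. In the control channel, 26 of the 43 keratins had a different log2 signal at 8 than at 4 weeks, 13 higher and 13 lower, against 33.4% of all genes, 21.9% higher and 11.6% lower. For hair keratins the controls were higher for 3 and lower for 6, and the lower ones included Krt71, Krt25 and Krt35. A ratio of DEP over control at 8 weeks thus depends on the control channel as well as on the DEP channel. For Krt79 the control signal fell by 1.08 between the times, and the change of -0.12 in the DEP signal was not called. Slide, age and time in the chamber cannot be told apart for these controls.

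Keratin filaments are anchored at the cell membrane by desmosomes, which join cell to cell, and hemidesmosomes, which join the cell to the basement membrane. Of 12 desmosome genes tested, 6 were lower and 1 higher at 4 weeks (median -0.24), and 3 were higher and 0 lower at 8 weeks (median 0.05). That is 58.3% of the list against 38.1% of all genes at 4 weeks, and 25% against 37.2% at 8 weeks. Without 1 gene that passed the filter only through 8-week DEP tissue, 5 of 11 were lower and 1 higher at 4 weeks. At 8 weeks 3 of these were higher and 0 lower. Dsc2, a desmosomal cadherin, fell by 0.61 at 4 weeks (adjusted p = 1.56e-04), and Pkp3, a plaque protein, rose at both times by 0.57 and 0.72. Pkp1, another plaque protein, fell by 0.52 at 4 weeks and rose by 0.27 at 8 weeks. Dsg1a, a cadherin of skin, had a mean of -0.43 at 4 weeks. There its DEP channel was well above background on 0 of the 4 arrays and its control channel on 1, so the size is uncertain. Dsp, which binds keratin directly and is named for that role after its values were seen, had means of -0.06 and -0.18 and was called at neither time (adjusted p = 0.609 and 0.232).

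Of 9 hemidesmosome genes, 5 were lower and 0 higher at 4 weeks, and 5 were higher and 0 lower at 8 weeks. The medians were -0.29 and 0.38. The share called was 55.6% of the list at each time, against 38.1% and 37.2% of all genes. Dst, which ties keratin to the hemidesmosome, rose by 0.56 at 8 weeks (adjusted p = 1.31e-04), and Itga6, an integrin of basal cells, fell by 0.65 at 4 weeks. Col17a1, the collagen of the hemidesmosome, rose at 8 weeks, where its arrays read 0.80, 1.23 and 1.74 (mean 1.26, adjusted p = 6.67e-04).

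**Figure D5:**
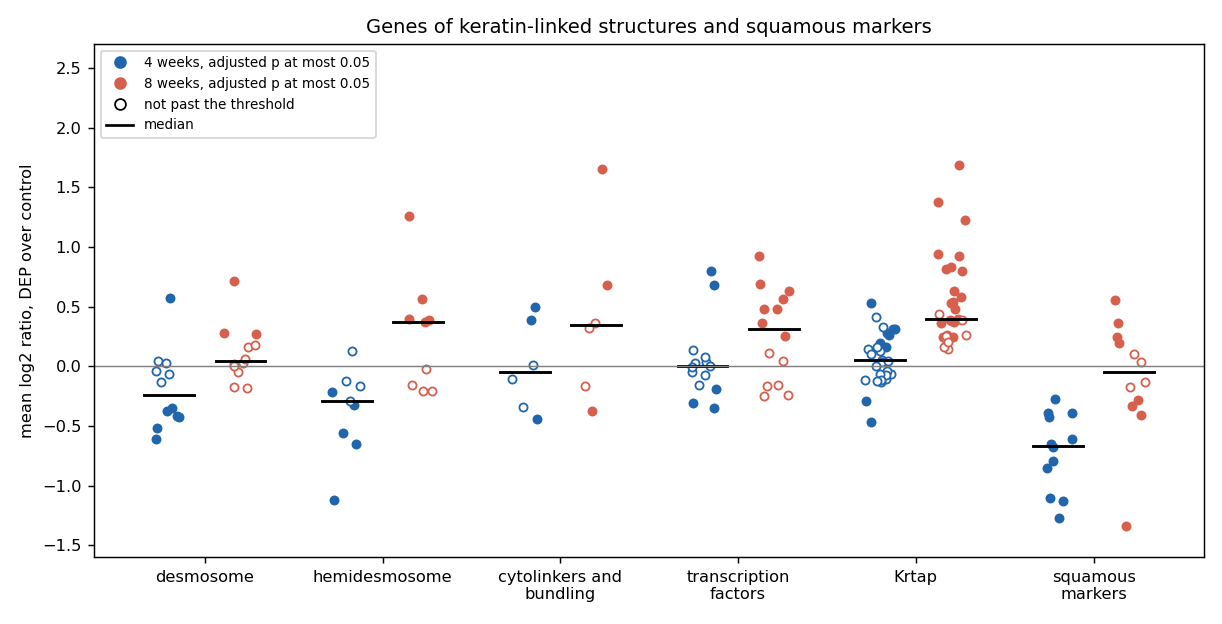
Mean log2 ratio of DEP over control (y axis) at 4 weeks (blue) and 8 weeks (red) for each tested gene of 6 lists (x axis), filled where the adjusted p was at most 0.05, with a black bar at each list's median. All 12 squamous markers were below 0 at 4 weeks. At 8 weeks 21 of 29 Krtap genes were called higher, against 20.3% of all genes. Without the 8 Krtap genes that passed the filter only through 8-week DEP tissue it was 14 of 21.

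Among proteins that bundle or link keratin filaments, 2 were higher and 1 lower of 6 tested at each time, or 50% of the list. Over all genes 38.1% were called at 4 weeks and 37.2% at 8 weeks. Without 1 gene that passed the filter only through 8-week DEP tissue, the counts were the same among 5. Tchh, trichohyalin, which hardens the inner root sheath together with its keratins, had log2 ratios of -0.40, -0.56, -0.42 and -0.38 at 4 weeks and 1.52, 1.70 and 1.74 at 8 weeks. Like Krt25 and Krt71, it was lower on each 4-week array and much higher on each 8-week array (means -0.44 and 1.65, adjusted p = 8.52e-04 and 2.72e-06). Evpl, a crosslinker of the cornified cell, rose by 0.50 and then fell by 0.38, and Eppk1, epiplakin, rose at both times by 0.39 and 0.68.

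Of 51 Krtap genes on the array, whose products embed the keratins of the hair shaft, 29 were tested. At 4 weeks 8 were higher and 2 lower (median 0.05), and at 8 weeks 21 were higher and 0 lower (median 0.39), with a higher ratio at 8 than at 4 weeks for 13 and a lower one for 0. The share called was 34.5% at 4 weeks and 72.4% at 8 weeks, against 38.1% and 37.2% of all genes. Without 8 Krtap genes that passed the filter only through 8-week DEP tissue, 14 of 21 were higher and 0 lower at 8 weeks, and 8 had a higher ratio at 8 than at 4 weeks. Krtap19-2 had 8-week log2 ratios of 1.77, 1.72 and 1.57 (mean 1.69, adjusted p = 4.52e-06), with a control channel not well above background on any of these arrays. Krtap11-1 had log2 ratios of 1.34, 1.41 and 1.39 (mean 1.38, adjusted p = 2.44e-06) and Krtap16-3 of 1.39, 1.26 and 1.01 (mean 1.22, adjusted p = 6.22e-05). Many Krtap genes are close copies of each other and their probes may share signal.

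Of 14 tested transcription factors of keratin-making cells, 2 were higher and 3 lower at 4 weeks, and 8 were higher and 0 lower at 8 weeks. The share called was 35.7% at 4 weeks, where 38.1% of all genes were called, and 57.1% at 8 weeks, where 37.2% were. Without 1 factor that passed the filter only through 8-week DEP tissue, 7 of 13 were higher and 0 lower at 8 weeks. Ovol2, a regulator of epithelial differentiation, rose by 0.80 and 0.69 at the 2 times, and Trp63, the regulator of basal cells, by 0.68 and 0.36. Msx2, a factor of the hair follicle, rose by 0.92 at 8 weeks (adjusted p = 9.89e-05), with a mean of -0.04 at 4 weeks that was not called. Lef1 and Hoxc13, also of the follicle and named after their values were seen, rose by 0.56 and 0.48 at 8 weeks (adjusted p = 5.22e-04 and 7.08e-04). Klf4, a factor of the skin barrier, rose by 0.63 at 8 weeks (adjusted p = 0.00887).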

How the data were processed

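Total RNA of nasal tissue was measured on Agilent mouse 4x44K V2 arrays. For each array the authors deposited spot intensities from Feature Extraction 10.10.1.1: median signals and local background medians as scanned, and processed intensities that the software had background-subtracted and dye-normalized. GeneSpring values, which the study's methods name, were not analysed here.

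From the median intensities, with limma 3.58.1 in R 4.3.3, normexp (offset 50, its parameters estimated without background outlier spots) and loess within arrays gave log2 ratios of DEP over control. Non-uniform spots were dropped and repeat spots averaged, leaving 39429 probes, of which 28330 took a symbol from the RefSeq genes of GRCm38.p6 by accession, while the array grid names mm9. No coordinate was carried between builds. The 25236 probes tested stood well above background in at least 1 channel on 3 or more arrays. One linear model over the 7 arrays, with a mean per exposure time, gave both means and their difference, adjusted by Benjamini-Hochberg over these probes. Channel signals were scaled between arrays by Aquantile. For keratins a probe dim in 1 channel at a time was given a bound, which "at least" marks, and genes of the other lists carry none. The bound sets the mean of the brighter group against a mean for the dim group. The latter takes, on each array, the higher of its own signal and the lowest signal well above background. It is a bound on the mean over arrays and takes no account of their spread. For Krt27, Krt28 and Krt75 it equals the measured mean fold.

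A keratin was given array by array where a call (adjusted p of at most 0.05) came with at least a 1.5-fold change in the same comparison. From each other list up to 4 called members with the largest changes were named. A called member of the hemidesmosome list is not reported here. Members, groups and lists were chosen with earlier results of these data known. The steps were tested on simulated arrays. Alternatives covered background correction, normalization, filters, probes, the methods' t-test, the replicate number as a block and leaving out each array. The number of arrays limits the precision, and there is no counting error.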

Additional observations from a re-analysis of the deposited data

Results flagged for a closer look

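The DEP over control log2 ratio differed between 8 and 4 weeks, in limma's test of the difference itself at an adjusted p of at most 0.05, and by at least 1.5-fold, for 19 of the 25 keratins given array by array. The differences (8 minus 4 weeks) were 2.81 for Krt25, 2.72 for Krt35, 2.72 for Krt71, 1.23 for Krt32, 1.11 for Krt28, 0.99 for Krt31, 0.99 for Krt75, 0.86 for Krt40 and 0.59 for Krt86 among hair keratins. They were 1.29 for Krt1, 1.23 for Krt10, 1.06 for Krt13, 0.95 for Krt79, 0.89 for Krt24 and 0.69 for Krt4 among squamous keratins. Krt14 had 1.27 and Krt15 -0.62 among basal keratins, and Krt19 had -1.59 and Krt7 -0.82 among simple keratins. The differences of Krt75 and Krt1 are lost when single arrays are left out, and that of Krt4 when the background is fitted on every spot, as given above. Krt40 and Krt75 passed the filter only through 8-week DEP tissue. Slide, exposure time and age cannot be told apart in any of them.

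Of the 25 keratins given array by array, 0 had an array far enough from the others to be set apart among the 4 arrays of 4 weeks. Keratins outside these 25 were not checked, and the 3 arrays of 8 weeks are too few for that check.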

How the results depend on the processing

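Alternatives were followed for a keratin only in comparisons where it was called with at least a 1.5-fold change, and none of these values changed direction. The smaller changes of the same keratins, such as Krt14, Krt10, Krt25 and Krt71 at 4 weeks or Krt19, Krt7 and Krt15 at 8 weeks, were not checked. The settings below moved a count of calls by more than 1.5 times. With the methods' t-test after adjustment, 12 keratins were lower at 4 weeks (19 in the values above) and 6 at 8 weeks (11). With the processed signals, 11 keratins passed p of at most 0.01 and 2-fold at 8 weeks (7). With the replicate number as a block, 8 keratins were lower in 8-week controls (13) and 3 had a lower ratio at 8 than at 4 weeks (5), and with an array left out the latter ranged from 3 to 6, being 3 without replicate 4 of 4 weeks, replicate 2 of 8 weeks or replicate 3 of 8 weeks. Leaving out each of the 7 arrays in turn gave 19 to 24 keratins called at 4 weeks and 22 to 31 at 8 weeks. Over all 20723 genes these runs called 5679 to 7925 at 4 weeks and 4461 to 8534 at 8 weeks. The labels give both times the same numbers, but deviations of same-numbered arrays correlated at only -0.006, -0.008 and 0.016, and replicate 1 of 4 weeks correlated best with another number (0.067), so the numbers do not pair the arrays, and with the block 20 keratins were called at each time. The block also ended the calls of Krt1 at 8 weeks and in the difference and of Krt8 at 8 weeks. With no filter Krt28 was no longer called, because another probe of it, dim on most arrays, was then the brighter one. Median centring moved the median of all genes at 8 weeks to -0.10, and gave 16 keratins higher and 15 lower there. Over all genes this setting gave 2539 higher and 6871 lower at 8 weeks, against 4203 and 3500 in the main setting. Over all genes, 7898 were called at 4 weeks and 5041 with the background fitted on every spot, 4367 by the t-test. The methods' t-test, which sets channels against each other within a time, was not run for the difference between the times, nor was slide as a block, since each slide holds 1 time. The processed signals moved the values of Krt24, Krt25, Krt27, Krt28, Krt32, Krt35, Krt40, Krt71 and Krt75 by over 1.5-fold, as given above, and the differences between the times to 5.52 for Krt25, 4.09 for Krt71, 3.86 for Krt35, 3.21 for Krt28 and 3.12 for Krt40.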

Other observations

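Markers of other cells of the nose that take no part in the lists above also differed, and their part in the keratin values was not tested. Of 4 markers of the sustentacular cells that support olfactory neurons, 4 were higher at 4 weeks (median log2 ratio 0.37), and at 8 weeks 3 were lower and 1 higher (median -0.45). Of 5 markers of ciliated cells, 3 were higher at 4 weeks and 2 at 8 weeks, with 0 lower at either time. Of 6 markers of secretory cells of the airway, 1 was higher and 2 lower at 4 weeks, and 2 were higher and 1 lower at 8 weeks. Of 6 markers of skeletal muscle, 2 were higher and 2 lower at 4 weeks, and 1 was higher and 3 lower at 8 weeks. Over all genes 38.1% were called at 4 weeks and 37.2% at 8 weeks.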
